A study of Mus musculus with 281 samples.

Results

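Lrp2, Cubn, Amn, Dab2 and the AP-2 subunit genes Ap2a1, Ap2a2, Ap2b1, Ap2m1 and Ap2s1 were taken by name from the deposited gene table and followed in counts-per-million units (CPM) in single cells of the mouse stria vascularis. These are 9 of the 47752 genes in that table. The stria vascularis is the epithelium of the cochlear lateral wall that secretes potassium into endolymph. Single cells were picked by pipette and sequenced by a full-length protocol without molecular barcodes from mice on a 129S6 background. There were 40 Slc26a4+/- cells (postnatal day 26 to 33) and 69 Slc26a4-/- cells (day 24 to 44), and the Slc26a4+/+ cells (day 22 to 42) comprised 95 of the 4 named types below, 11 of a type led by Crhbp and 66 of a mixed cluster. Slc26a4 encodes pendrin, an anion exchanger, and the labels do not say which part of the gene the mutant allele removes. No label ties a cell to a mouse, so each genotype counted as 1 sample. No test was therefore run, and the spread given is that between cells, between the 4 sequencing runs or between the 37 collection sessions. Runs and sessions were inferred from the names of the deposited per-cell data. A run is a shared date there, and a session is a set of cells with the same run, name code, age and genotype.

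Clustering on other genes (no member and no gene of the endocytosis list below) gave 21 cells with marginal cell markers (MC-like), 34 with spindle cell markers (SC-like), 36 with root cell markers (RC-like) and 88 with intermediate cell markers (IMC-like). Marginal cells face the endolymph, intermediate cells are the pigmented melanocyte-derived layer, and spindle and root cells are the pendrin-expressing cells at the borders of the stria and in the adjoining lateral wall. A further 17 cells were led by Crhbp, Slc26a7 and Vmo1 and received no name, and 85 cells formed a mixed cluster led by haemoglobin, Ptprc and cycling genes, in which 53 cells scored highest for intermediate cell markers. Estimated counts per cell ran from 1848 to 7932729, and all 20 cells under 100000 counts were Slc26a4+/+. Run and genotype were entangled: all 40 Slc26a4+/- cells came from run 4, all 9 SC-like Slc26a4-/- cells came from run 2, and run 4 held no Slc26a4+/+ MC-like cell. Slc26a4 itself averaged 944 CPM in the 40 Slc26a4+/+ SC-like and RC-like cells (32 with a count), 554 CPM in the 8 Slc26a4+/- cells and 793 CPM in the 22 Slc26a4-/- cells (14 with a count). In SC-like cells alone Slc26a4 averaged 912 CPM (median 692) in Slc26a4+/+ and 174.05 CPM (median 24.5) in Slc26a4-/- cells. In RC-like cells the means were 989 CPM (median 33.5) and 1222 CPM (median 1042), and 9 of the 17 Slc26a4+/+ cells had at least 10 counts. Whole-transcript counts cannot tell an intact from a mutant message, so the directions below rest on the genotype labels.

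Megalin, the product of Lrp2, is a giant endocytic receptor that takes up filtered and secreted proteins at the apical face of absorptive epithelia such as the kidney proximal tubule. Cubilin (Cubn) has no membrane anchor of its own and reaches the surface with amnionless (Amn), and the pair often works beside megalin. Dab2 is a clathrin adaptor that binds NPXY motifs in receptor tails. AP-2 is the adaptor that gathers cargo and clathrin at the plasma membrane: each complex holds 1 large alpha subunit (from Ap2a1 or Ap2a2), 1 large beta subunit (Ap2b1), 1 medium mu subunit (Ap2m1) and 1 small sigma subunit (Ap2s1). Loss of LRP2 in people causes Donnai-Barrow syndrome, in which hearing loss is common.

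In the GENCODE M21 annotation (GRCm38), Lrp2 lies at chr2:69424340-69586065 on the minus strand, Cubn at chr2:13276338-13491813 on the minus strand, Amn at chr12:111271095-111276426 on the plus strand and Dab2 at chr15:6299788-6440712 on the plus strand. Ap2a1 lies at chr7:44900373-44929496 on the minus strand, and on the plus strand Ap2a2 at chr7:141562173-141633011, Ap2b1 at chr11:83299024-83405035, Ap2m1 at chr16:20535478-20544909 and Ap2s1 at chr7:16738410-16749294. Lrp2 has 3 complete coding transcripts there. The full-length transcript is 15460 bases long, with 79 exons and 4660 codons, and carries the transmembrane segment and the cytoplasmic tail. The 25-exon transcript (4359 bases, 1363 codons) and the 11-exon transcript (2228 bases, 426 codons) share its first exons and then stop in their own last exons, so both would encode only the first part of the extracellular portion. A total of 3 codon runs for asparagine, proline, any residue and tyrosine (the NPXY motif) were found in the reading frame of the full-length form, at codons 2856, 4524 and 4603, and 0 in those of the 25-exon form and the 11-exon form. The coding stretch around the last 2 runs is shown because it is the part that the short transcripts lack, with the runs in capitals (spliced from 4 exons, chr2:69425789-69430346, minus strand):
Full-length Lrp2, tail: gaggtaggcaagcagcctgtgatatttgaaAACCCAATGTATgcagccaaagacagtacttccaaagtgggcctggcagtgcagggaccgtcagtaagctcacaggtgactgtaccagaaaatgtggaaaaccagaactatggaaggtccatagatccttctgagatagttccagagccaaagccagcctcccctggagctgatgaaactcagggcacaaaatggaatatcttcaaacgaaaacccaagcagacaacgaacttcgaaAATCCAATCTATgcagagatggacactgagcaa
The coding ends of the short transcripts are shown because these bases set them apart from the full-length form. Capitals mark the bases, stop codon included, that are not coding in that form, 44 of them in the 25-exon transcript (chr2:69506335-69506409, minus strand) and, in the 11-exon transcript, 110 such bases plus the stop codon (spliced from 2 exons, chr2:69527177-69527546, minus strand):
Lrp2 25-exon transcript, coding end: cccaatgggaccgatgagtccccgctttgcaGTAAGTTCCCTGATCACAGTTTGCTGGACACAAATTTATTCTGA
Lrp2 11-exon transcript, coding end: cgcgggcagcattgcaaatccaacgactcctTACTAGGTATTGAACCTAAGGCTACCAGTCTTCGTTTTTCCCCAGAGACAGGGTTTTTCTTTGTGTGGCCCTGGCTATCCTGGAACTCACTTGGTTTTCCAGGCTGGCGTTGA

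Lrp2 was among the most abundant messages of MC-like cells and lower in each of the other cell types. In the 14 Slc26a4+/+ MC-like cells it ranged from 11364 to 36374 CPM with a median of 25726 and a mean of 24872 CPM, which was 2.49% of all counts and the third highest mean of any gene. The 11 Crhbp-led Slc26a4+/+ cells ranged from 5748 to 15051 CPM (median 8721, mean 9477). The 23 SC-like Slc26a4+/+ cells ranged from 445 to 15500 CPM (median 2542, mean 3387). The ranges of cells in neighbouring groups overlapped. The means of collection sessions ran from 16157 to 36374 CPM over 8 sessions of the 14 MC-like cells. They ran from 7235 to 15051 over 10 sessions of the 11 Crhbp-led cells and from 1426 to 7165 over 12 sessions of the 23 SC-like cells. These means did not overlap, but many were of 1 or few cells, so they do not show a separation repeated between sessions. The lowest Crhbp-led and highest SC-like means were nearly adjacent, and 1 Crhbp-led cell held 5748 CPM. MC-like cells exceeded SC-like cells in each of the 3 runs that held both, by log2 2.29 to 3.10, and over all runs by 2.88 ± 0.46 (SD between runs, n = 3). Lrp2 was the only 1 of the 6 members with an average of at least 10 CPM over the 4 named types that stood at least 2-fold above every other type in MC-like cells, where 5.99% of 9738 genes did so. None of the 6 passed that mark in SC-like, RC-like or IMC-like cells, where 7.12%, 9.39% and 6.88% of genes did.

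**Figure D1:**
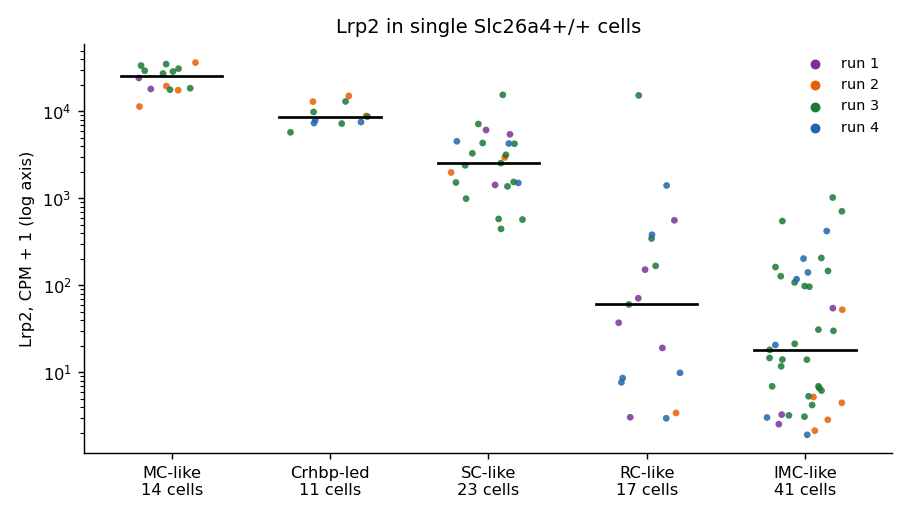
Lrp2 in single Slc26a4+/+ cells by cell type, as CPM + 1 on a log axis; each point is a cell coloured by sequencing run and the bar is the median. The medians descend from 25726 CPM in MC-like cells to 17.2 CPM in IMC-like cells, and 1 RC-like cell stands apart at 15261 CPM.

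RC-like and IMC-like cells held little Lrp2. The 17 RC-like Slc26a4+/+ cells averaged 1087 CPM with a median of 59.4 CPM, and that mean rested on 1 cell of run 3 at 15261 CPM, without which the other 16 cells averaged 201.4 CPM and reached at most 1406 CPM. The summed level of the 11 marginal cell markers in that cell was 13447 CPM, including Kcnq1 at 1361 CPM and Kcne1 at 2417 CPM, against a median of 594 CPM over the 17 cells and a lowest value of 16273 CPM in the 14 MC-like cells. The 41 IMC-like Slc26a4+/+ cells ranged from 0.917 to 1022 CPM with a median of 17.2 and a mean of 107.8 CPM. The difference between the RC-like and IMC-like means was smaller than the range of single cells within either type. The highest Lrp2 value of any cell, 61991 CPM, belonged to a Slc26a4+/+ cell of the mixed cluster from run 1. It had counts for 8 of the 11 marginal cell markers, with Kcne1 at 14604 CPM but Kcnq1 at 6.87 and Atp1b2 at 44.6 CPM.

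Over the 95 Slc26a4+/+ cells of the 4 named types, the genes whose log2(CPM + 1) followed Lrp2 most closely among 9774 genes included Enpep (Pearson r = 0.84), Gpx3 (0.80), Mall (0.80) and Fam20a (0.76). Enpep encodes an aminopeptidase and Gpx3 the secreted glutathione peroxidase. Enpep averaged 2390 CPM in MC-like, 874 in SC-like, 62.6 in RC-like and 5.19 CPM in IMC-like cells, and it was itself one of the markers used to name MC-like cells. These cells share libraries and runs, and the correlations are a description of the sorting of genes by cell type.

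In MC-like and SC-like cells most Lrp2 counts were assigned to the short transcripts, and the split moved with cell type and with run. In cells with at least 500 Lrp2 counts, the full-length form held a median of 11.1% of the gene's counts in the 14 MC-like, 34.4% in 19 SC-like and 52.04% in the 11 Crhbp-led Slc26a4+/+ cells. The 25-exon form held 64.7%, 32.5% and 21.4% and the 11-exon form held 21.6%, 28.4% and 30.1%. Per length, mean TPM (a transcripts-per-million measure, corrected for transcript length) in MC-like cells were 5269 for the 25-exon form, 2980 for the 11-exon form and 280 for the full-length form, against 390, 673 and 100 TPM in SC-like cells. All 3 forms were therefore higher in MC-like cells, the 25-exon form by the widest margin.
The share of the 25-exon form was higher in MC-like than in SC-like cells in each of the 3 runs with both, with medians of 49.99% against 21.7% in run 1, 25.3% against 19.6% in run 2 and 86.7% against 32.8% in run 3. Within MC-like cells the runs differed as much as the cell types did: the 4 cells of run 2 lay between 15.2% and 35.8% and the 8 cells of run 3 between 60.9% and 95.8%, with no overlap. Slc26a4-/- MC-like cells repeated this split, at 16.2% and 28.6% in run 2 and 69.8%, 70.8% and 86.2% in run 4. The 25-exon form shares 4048 of 4089 and the 11-exon form 1168 of 1278 coding bases with the full-length form, so a read from the first exons fits several forms and its assignment rests on the reads elsewhere along the transcript. Whether read coverage along the transcript differed between runs was not tested, and the total Lrp2 level does not depend on the split.

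**Figure D2:**
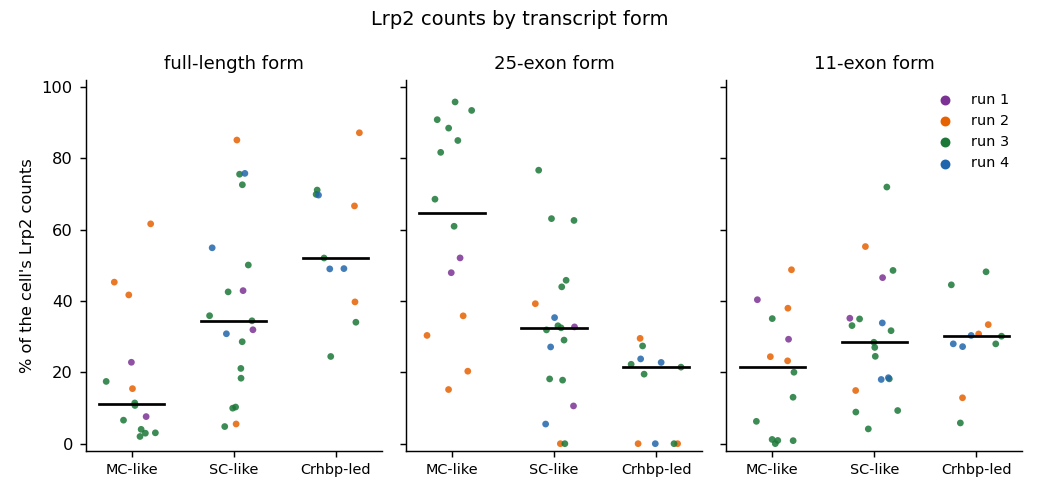
Percent of a cell's Lrp2 counts assigned to each coding transcript in Slc26a4+/+ cells with at least 500 Lrp2 counts; points are cells coloured by run, bars are medians. MC-like cells have the lowest median for the full-length form (11.1%) and the highest for the 25-exon form (64.7%), and MC-like cells of run 2 lie below those of run 3 for the 25-exon form.

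Between genotypes, Lrp2 was lower in Slc26a4-/- than in Slc26a4+/+ MC-like cells. The 5 Slc26a4-/- cells held 9636, 10201, 10513, 14819 and 16760 CPM and the 2 Slc26a4+/- cells 19319 and 21766 CPM. The lowest Slc26a4+/+ cell, at 11364 CPM, lay within the Slc26a4-/- range, and the other 13 lay above the highest Slc26a4-/- cell. The means were 12386 and 24872 CPM, a log2 ratio of -1.01, and within run 2, the only run with both, 13198 CPM in 2 cells against 21211 CPM in 4 cells gave -0.68. With every cell named instead by its highest marker score the log2 ratio was -0.24. The summed marginal cell markers had medians of 26114 CPM in Slc26a4-/- and 36107 CPM in Slc26a4+/+ MC-like cells. Of the 6 members compared there, Lrp2 was at least 2-fold lower and Ap2a2 at least 2-fold higher in Slc26a4-/- cells, as were 24.1% and 24.7% of 8247 genes.
In SC-like cells the direction was the opposite. The 9 Slc26a4-/- cells ranged from 1660 to 12427 CPM (median 4705, mean 5957), overlapping the 23 Slc26a4+/+ cells throughout, and the log2 ratio was 0.81 over all runs and 1.27 within run 2, which held only 2 Slc26a4+/+ cells. Summed marginal cell markers were also higher in the Slc26a4-/- SC-like cells, with a median of 4130 against 2148 CPM, while summed spindle cell markers were lower, with 11338 against 48453 CPM; their part in the Lrp2 values was not tested. In RC-like cells Lrp2 averaged 99.7 CPM in 13 Slc26a4-/- cells (0 to 843, median 3.13) and 1087 CPM in the 17 Slc26a4+/+ cells, a log2 ratio of -3.43 (the Slc26a4+/+ mean was 201.4 CPM without the 1 cell at 15261 CPM), and within run 4 the means were 10.4 and 302.07 CPM (log2 -4.73). SC-like and RC-like cells together gave 0.05 over all runs, 1.15 within run 2 and -6.88 within run 4, where all 7 Slc26a4-/- cells were RC-like. The 4 Slc26a4+/- Crhbp-led cells held 3769, 5523, 7689 and 10006 CPM of Lrp2 and the 2 Slc26a4-/- cells 5942 and 18801 CPM.

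**Figure D3:**
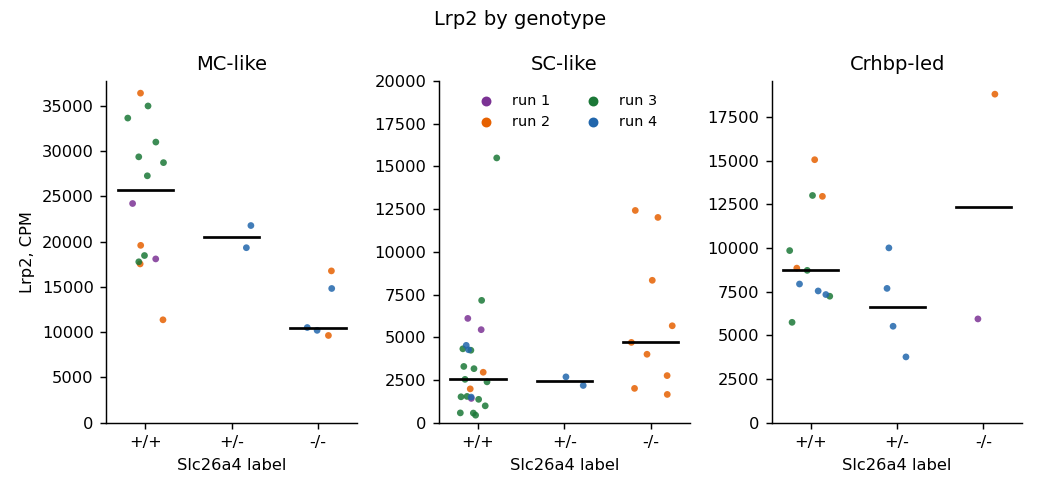
Lrp2 (CPM) by Slc26a4 label in MC-like, SC-like and Crhbp-led cells; points are cells coloured by run, bars are medians. In MC-like cells the 5 Slc26a4-/- cells lie at or below 16760 CPM and 13 of the 14 Slc26a4+/+ cells above it; in SC-like cells the genotypes overlap.

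The partners that work with megalin in the kidney were sparse or not seen. Amn had no count in any cell of the series, which allows a share of cells with a count of up to 1.07%. Cubn had a count in 14 cells of the series (4.98%, exact binomial interval 2.75 to 8.22%) and 894 counts in all, of which 1 Slc26a4+/- RC-like cell held 473 (364 CPM). In Slc26a4+/+ cells it had counts in 2 of 17 RC-like cells (76.7 and 274.5 CPM), 2 of 41 IMC-like cells (27.6 and 62.8 CPM), 1 of 14 MC-like cells (3.62 CPM) and 0 of 23 SC-like cells, which allows up to 13.04%. The 14 MC-like cells, the richest in Lrp2, held 5 Cubn counts between them. Intervals and limits of this kind cover counting error only.
Dab2 had a count in 24 cells of the series (8.54%, interval 5.55 to 12.4%). In Slc26a4+/+ cells it was found in 4 of 23 SC-like cells (17.4%, interval 4.95 to 38.8%), at 80.4, 102.98, 264.4 and 283.4 CPM with up to 852 counts in a cell, and 4 cells also passed a mark of 10 counts or held a count after thinning each cell to 100000 counts. It was not detected in any of the 14 MC-like cells, which allows up to 21.4%, or in the 17 RC-like cells. No Dab2 was counted in the 9 SC-like Slc26a4-/- cells either, but 0 of 9 allows up to 33.3%. Outside the named types, 3 of 4 Slc26a4+/- Crhbp-led cells had a count, at 0.815, 265.9 and 268.7 CPM, and the highest value, 558 CPM, was in a mixed cluster cell. The genes that followed Dab2 most closely over the 95 cells were Wnt11 (r = 0.57), Serpinb5 (0.56), Pcdh20 (0.50), Plcxd2 (0.50) and Slc2a10 (0.49), an order that rests on few cells with a count.

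The AP-2 genes were present in every named cell type, and none stood out in any of them. Ap2m1 averaged 795 CPM in MC-like Slc26a4+/+ cells, 517 CPM in SC-like, 416 CPM in IMC-like and 330 CPM in RC-like ones and had a count in 95.4% of all cells. Its lead in MC-like over SC-like cells, a log2 ratio of 0.62, held in 3 of 3 runs but was smaller than the SD of 0.86 between runs. Ap2b1 averaged 234.002 CPM in SC-like, 231.3 in MC-like, 201.5 in IMC-like and 129.9 CPM in RC-like cells. Of the alpha subunits, Ap2a1 ran from 109.4 CPM in SC-like to 143.9 CPM in IMC-like cells and Ap2a2 from 48.4 CPM in MC-like to 105.99 CPM in SC-like cells. Ap2s1, the smallest subunit, averaged between 18.7 CPM in IMC-like and 49.1 CPM in RC-like cells. For all 5 genes the ratio of the highest to the next type was smaller than the SD of that ratio between runs, so the order of the types could not be told from the spread.

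**Figure D4:**
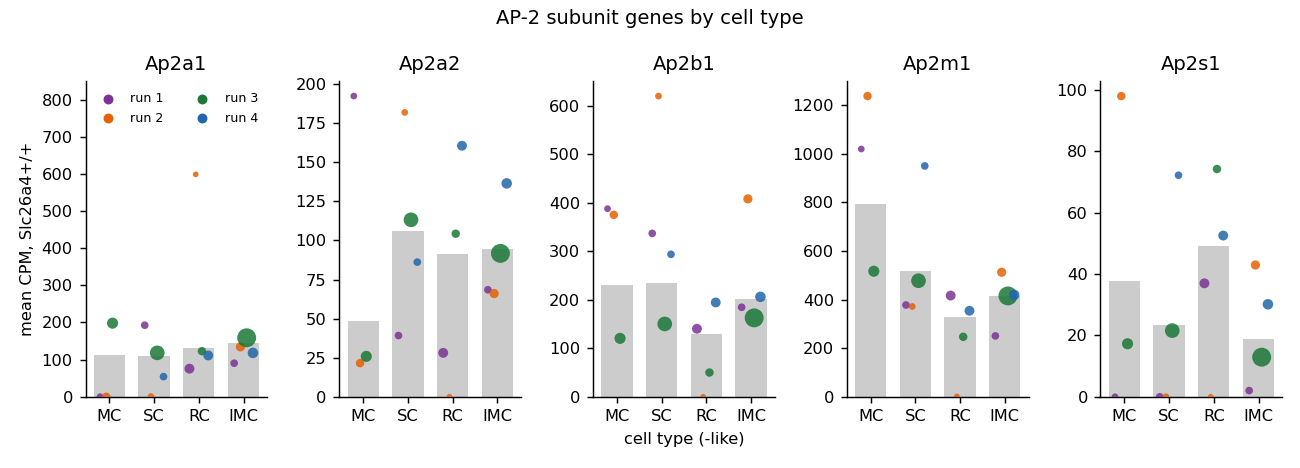
Mean CPM of the AP-2 subunit genes in Slc26a4+/+ cells of 4 named types (grey bars, all runs) with the mean of each run as a coloured point whose area grows with the number of cells. Run means scatter around the bars as widely as the bars differ; Ap2m1 is highest in MC-like cells (795 CPM) and lowest in RC-like cells (330 CPM).

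Per length, Ap2m1 was the most abundant subunit message over the 95 Slc26a4+/+ cells, at a mean of 321.6 TPM, followed by Ap2b1 at 263.95 TPM, the sum of both alpha genes at 137.2 TPM and Ap2s1 at 59.7 TPM. The place of Ap2b1 depended on a short annotated fragment of 651 bases with an incomplete coding sequence, which took 81.3% of the gene's TPM in MC-like cells and 65.8% of it in IMC-like cells. Scaled instead to the longest coding transcript, mean levels were 163.7 CPM per kb for Ap2m1, 56.6 for both alpha genes together, 35.7 for Ap2b1 and 33.7 for Ap2s1. Counts for a beta, a mu, a sigma and at least 1 alpha subunit were found together in 13 of 41 IMC-like (31.7%, interval 18.1 to 48.1%), 6 of 14 MC-like (42.9%), 8 of 17 RC-like (47.1%) and 6 of 23 SC-like (26.1%) Slc26a4+/+ cells. Ap2s1 was the subunit most often missing, with a count in 14 of the 41 IMC-like cells. Both alpha genes had counts in the same cell in 26 of 41 IMC-like cells, Ap2a1 alone in 7, Ap2a2 alone in 5 and neither in 3.
The share of IMC-like cells with the full set was 13 of 41 in Slc26a4+/+, 14 of 20 in Slc26a4+/- and 18 of 27 in Slc26a4-/- cells. It also moved with the run: among Slc26a4+/+ IMC-like cells it was 6 of 26 in run 3 and 5 of 7 in run 4. Within run 4 the 3 genotypes stood at 5 of 7, 14 of 20 and 9 of 11 cells, with median totals of 1831846, 2484304 and 4072682 counts per cell. The intervals overlapped widely, but they cover counting error over cells only and do not measure differences between mice. Thinned to 100000 counts, these shares became 3 of 7, 8 of 20 and 9 of 11 cells. Within run 2 the full set was found in 1 of 5 Slc26a4+/+ and 9 of 16 Slc26a4-/- cells.
Over the 95 cells, log2(CPM + 1) of Ap2m1 was followed most closely by Ghitm (r = 0.49), Ndufa6 (0.49), Pnrc1 (0.46), Paip2 (0.45) and Cttn (0.45). Ap2b1 came next, at rank 6 of 9774 genes with r = 0.43, while the other subunits showed r = 0.12 (Ap2s1), 0.02 (Ap2a2) and 0.01 (Ap2a1). In counts this sparse the low values are no finding, and all points share libraries and runs.

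Ap2m1, Ap2b1 and Ap2a1 have coding exons that some transcripts skip. They are printed because they are the bases that separate the annotated protein forms, in capitals between 30 coding bases on either side, spliced across introns (Ap2m1, chr16:20540386-20541004, plus strand; Ap2b1, chr11:83351142-83365676, plus strand; Ap2a1, chr7:44903171-44903770, minus strand):
Ap2m1 exon: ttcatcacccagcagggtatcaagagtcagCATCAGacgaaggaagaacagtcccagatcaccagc
Ap2b1 exon: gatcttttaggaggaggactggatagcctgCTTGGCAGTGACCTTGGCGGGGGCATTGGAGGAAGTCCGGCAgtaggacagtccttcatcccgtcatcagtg
Ap2a1 exon: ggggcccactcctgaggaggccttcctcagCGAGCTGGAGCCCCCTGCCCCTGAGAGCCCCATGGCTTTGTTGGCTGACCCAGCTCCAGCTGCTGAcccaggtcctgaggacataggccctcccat
The exons hold 6 bases (2 codons) in Ap2m1, 42 bases (14 codons) in Ap2b1 and 66 bases (22 codons) in Ap2a1. In Ap2m1 both forms were used: the transcript with the exon took 45.4% of the counts of both full coding forms in Slc26a4+/+ MC-like cells, 50.8% of them in SC-like cells, 55.3% in RC-like cells and 43.6% in IMC-like cells. In Ap2b1 a 951-codon form with the exon was compared with a 937-codon form without it. The form with the exon took 27.8%, 11.7%, 44.9% and 21.5% in the same order of types. Between 4 and 22 cells per type held at least 10 such counts. Complete coding forms of 942 and 913 codons were not included, so these shares do not describe all Ap2b1 messages. In Ap2a1 the 2 forms with the exon took 0.474%, 0.580%, 0.590% and 0.334%, and every cell with at least 10 such counts (7 MC-like cells, 9 SC-like cells, 11 RC-like cells and 27 IMC-like cells) had at most 10% of the exon-containing forms. The 2 Ap2m1 forms also differ outside the coding part (2937 and 2080 bases), so their split is not a measure of the 6-base exon alone.

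The study treats AP-2, through its mu subunit, as a candidate binding partner of pendrin, so its messages were compared between genotypes in the pendrin-expressing types. In SC-like and RC-like cells together, 22 Slc26a4-/- cells were set against 40 Slc26a4+/+ cells. The 5 subunit genes had a median log2 ratio of 0.35, against -0.11 over all 9616 genes compared. Ap2a1 was the 1 member of 6 past a ratio of 2, with 277.97 against 118.2 CPM (log2 1.23), and none was at least 2-fold lower. Over all genes, 14.0% were at least 2-fold higher and 19.8% at least 2-fold lower. Ap2m1 ranged from 2.14 to 1746 CPM (median 515, mean 556) in Slc26a4-/- cells and from 0 to 1606 CPM (median 387, mean 438) in Slc26a4+/+ cells, a log2 ratio of 0.35. Ap2b1 averaged 342 against 190 CPM (log2 0.85), Ap2a2 89.5 against 99.7 CPM (log2 -0.15) and Ap2s1 35.04 against 34.4 CPM (log2 0.03). The ranges of the genotypes overlapped for every subunit.
These differences did not hold within both runs. In run 4, where 7 RC-like Slc26a4-/- cells met 9 Slc26a4+/+ cells (6 RC-like, 3 SC-like), the log2 ratios were 0.03 for Ap2a1, -0.34 for Ap2b1, -0.44 for Ap2m1, -0.76 for Ap2a2 and -0.43 for Ap2s1. In run 2, 15 Slc26a4-/- cells (9 SC-like, 6 RC-like) met 3 Slc26a4+/+ cells (2 SC-like, 1 RC-like). The log2 ratios there were 0.86 for Ap2a1, 0.01 for Ap2b1, 1.33 for Ap2m1 and -0.36 for Ap2a2, and Ap2s1 had no count in the 3 Slc26a4+/+ cells. The 1 RC-like Slc26a4+/+ cell held 1.61 CPM of Ap2m1 and 599 CPM of Ap2a1. The 2 SC-like Slc26a4+/+ cells averaged 372 and 0.464 CPM of these genes, so the pooled Ap2a1 ratio of run 2 rested on 1 Slc26a4+/+ cell. Among RC-like cells of run 4 alone, 7 against 6 cells, Ap2m1 stood at 407 and 354 CPM (log2 0.20) and Ap2a1 at 94.3 and 111.2 CPM (log2 -0.24).
In SC-like cells alone the subunit genes did not move together. Ap2m1 averaged 823 CPM in the 9 Slc26a4-/- cells (372 to 1746, median 682) and 517 CPM in the 23 Slc26a4+/+ cells (0 to 1606, median 449), and Ap2b1 567 against 234.002 CPM (log2 1.27). Ap2a1 stood at 234.6 against 109.4 CPM (log2 1.09), Ap2a2 at 98.2 against 105.99 CPM (log2 -0.11) and Ap2s1 at 7.61 against 23.49 CPM (log2 -1.51). All 9 of those Slc26a4-/- cells came from run 2, where the 2 Slc26a4+/+ SC-like cells averaged 372 CPM of Ap2m1 and 620 CPM of Ap2b1, and the within-run log2 ratios of 1.14 and -0.13 rested on those 2 cells. The summed spindle cell markers were also lower in these 9 cells, as given above. In RC-like cells Ap2m1 averaged 371 CPM in 13 Slc26a4-/- and 330 CPM in 17 Slc26a4+/+ cells, and the log2 ratios of the other subunits were 1.24 for Ap2a1, 0.51 for Ap2b1, 0.14 for Ap2s1 and -0.13 for Ap2a2.

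**Figure D5:**
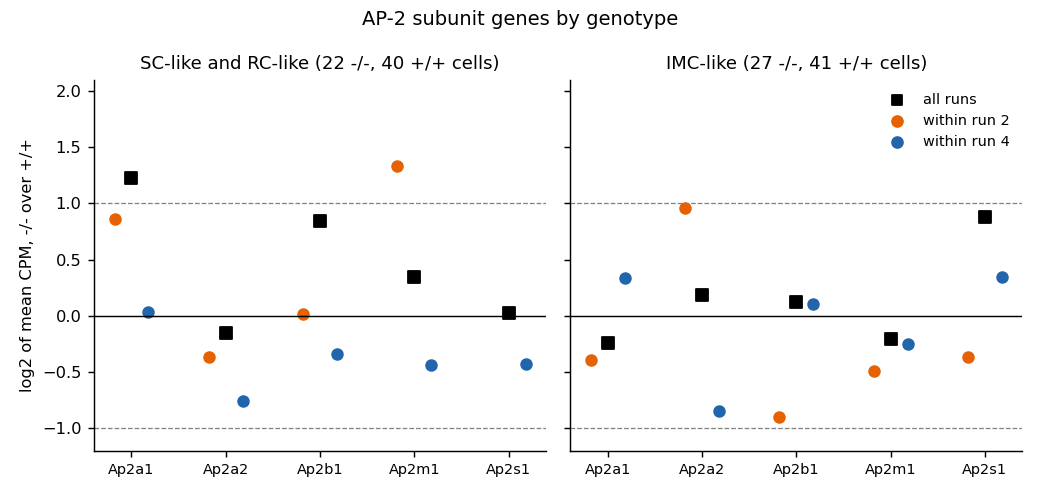
Log2 ratio of mean CPM, Slc26a4-/- over Slc26a4+/+, for each AP-2 subunit gene over all runs (black squares) and within runs 2 and 4 (coloured points); dashed lines mark a ratio of 2. In SC-like and RC-like cells Ap2m1 lies at 1.33 within run 2 and -0.44 within run 4. The run 2 points there rest on 3 Slc26a4+/+ cells, 2 SC-like and 1 RC-like. No run 2 point is drawn for Ap2s1, which had no count in those cells.

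In IMC-like cells the means of the AP-2 subunit genes lay within 2-fold of each other between the genotypes, with a median log2 ratio of 0.12 between 27 Slc26a4-/- and 41 Slc26a4+/+ cells, which was 1.24 when means were taken over log2(CPM + 1) and -0.39 within run 2. Ap2m1 averaged 360 CPM in Slc26a4-/- (5.14 to 749, median 392) and 416 CPM in Slc26a4+/+ cells (0.616 to 1467, median 351). Ap2b1 averaged 219.8 against 201.5 CPM, Ap2a1 121.6 against 143.9, Ap2a2 107.4 against 94.5 and Ap2s1 35.4 against 18.7 CPM. No subunit passed a ratio of 2. Lrp2 was the 1 member of 6 at least 2-fold lower (31.2 against 107.8 CPM), where 15.6% of 8878 genes were, and no member was at least 2-fold higher, where 11.2% were. Within run 2 the Lrp2 ratio had the opposite sign (log2 1.87, 48.1 against 12.4 CPM), and within run 4 it was -4.08 (6.65 against 129 CPM).
The Slc26a4+/- cells, all of run 4, gave 1 IMC-like member at least 2-fold higher than Slc26a4+/+, Ap2s1 at 46.1 against 18.7 CPM, where 9.34% of 8787 genes were, and none at least 2-fold lower, where 16.1% were. The Slc26a4+/+ cells there came from all runs, and the ratios differed against the 7 Slc26a4+/+ cells of run 4. Ap2s1 was then at 46.1 against 30.1 CPM (log2 0.60). Ap2a2 was at 57.7 against 136.5 CPM (log2 -1.23) and Lrp2 at 63.8 against 128.8 CPM (log2 -1.003). In the 8 Slc26a4+/- SC-like and RC-like cells, Cubn was at least 2-fold higher, as were 18.8% of 9582 genes, and rested on the 1 cell named above; Lrp2 was at least 2-fold lower (649 against 2410 CPM), as were 24.3%. Only 2 of those 8 cells were SC-like, against 23 of 40 in Slc26a4+/+. Against the 9 Slc26a4+/+ cells of run 4, Lrp2 was at log2 -1.05 and Ap2a1 at 196.6 against 92.3 CPM (log2 1.08). Cubn had no count in those Slc26a4+/+ cells. No share of all genes is given for run 4 alone, so these values within run 4 are not counted as calls. Ap2m1 averaged 671 CPM in the 8 Slc26a4+/- cells, against 438 CPM in Slc26a4+/+ and 556 CPM in Slc26a4-/- cells.

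A list of other endocytosis genes (receptors, coats, kinases, sorting machinery and ligands) put these members in context, and 86 of them averaged at least 10 CPM over the 4 named types. At least 2-fold above every other type stood 8 of the 86 in MC-like cells (5.99% of all genes), 3 in SC-like cells (7.12%), 11 in RC-like cells (9.39%) and 5 in IMC-like cells (6.88%). Among the megalin partners, Lrpap1, which encodes the chaperone that escorts megalin through the secretory pathway, averaged 7248 CPM in MC-like, 2639 in SC-like, 2622 in Crhbp-led, 260 in RC-like and 242.4 CPM in IMC-like cells. Myo6, a motor that carries endocytic vesicles inward, averaged 273.9 CPM in MC-like and 38.3 to 80.9 CPM in the other 3 named types. Gipc1, a linker between Myo6 and cargo, was flat at 83.95 to 167.97 CPM.
Ehd3, an ATPase of recycling endosomes, showed the widest gap of the list genes named here, with 2922 CPM in MC-like cells and 84.01 to 156.1 CPM in the other named types (log2 4.22 over the next). Rab7, Rab11b and Rab4a, small GTPases of late and recycling endosomes, differed between the highest and next type by log2 0.22 to 0.31. No clathrin chain gene stood 2-fold above every other named type: Cltc ranged from 108.9 to 188.97 CPM, Cltb from 44.5 to 138.2 CPM and Clta from 41.8 to 95.5 CPM. Of the scission and uncoating genes, Hspa8 averaged 519 to 895 CPM, Dnm2 109.8 to 319.8, Synj2 85.2 to 210.9 and Synj1 45.2 to 148.1 CPM. The AP-2 kinase genes Aak1 (120.4 to 344.6 CPM) and Gak (132.4 to 251.4 CPM) were found in every named type, while Bmp2k averaged 6.99 CPM over the 95 cells.
Among coat accessory genes, Epn3 averaged 506 CPM in MC-like and 3.30 CPM in IMC-like cells, while Numb, Epn2 and Itsn2 ran between 37.8 and 121.6 CPM. Other receptors of the list had other orders: Lrp10 was flat (614 to 777 CPM), Lrp5 and Vldlr were highest in RC-like cells (1037 and 534 CPM), and Sorl1 was highest in MC-like cells (829 CPM) and 23.2 CPM in IMC-like cells. Of the AP-1 genes, Ap1b1 averaged 438 CPM in MC-like and 101.9 to 149.1 CPM in the other types, and Ap1m2, the epithelial mu subunit, 0.409 CPM in IMC-like and 107.3 to 260.3 CPM in the others. Of the AP-3 genes, Ap3s1 was highest in MC-like cells (200.6 CPM), Ap3m1 in RC-like cells (204.9 CPM), and Ap3d1 and Ap3b1 lay between 103.3 and 288.7 CPM. Of the megalin ligands of highest mean in the list, Clu (clusterin) averaged 39762 CPM in RC-like, 4728 in SC-like and 115.7 CPM in MC-like cells, Apoe 1972 CPM in RC-like and 12.7 CPM in MC-like cells, App 3666 and 716 CPM and Cst3 (cystatin C) 875 and 356 CPM in the same types.

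Between Slc26a4-/- and Slc26a4+/+ SC-like and RC-like cells, 85 of the list genes were compared, with 11 at least 2-fold higher, 8 at least 2-fold lower and a median log2 ratio of 0.15, against -0.11 over all genes. The higher ones were Ocrl, Lrp1, Lrp4, Lrp8, Lrp12, Eps15l1, Itsn1, Hip1, Reps2, Ap1m1 and Ap3d1. Lrp1, a close relative of megalin, averaged 212.1 against 86.6 CPM, Itsn1, a scaffold of the coat rim, 117.9 against 26.7 CPM, Ap1m1 250.6 against 94.5 CPM and Ap3d1 443 against 187.4 CPM. The lower ones were Picalm, Snx9, Ehd3, Ap1g2, Ap1s3, Ap3m1, Apoe and App, with App at 1190 against 2873 CPM and Ap3m1 at 38.7 against 136.3 CPM. Over all genes, 14.0% and 19.8% passed the same marks.
In IMC-like cells 8 of 78 list genes were at least 2-fold higher (among them Lrp11, Necap2, Aak1, Sh3gl1, Synj1, Dnajc6 and Mt2) and 9 at least 2-fold lower (Vldlr, Sorl1, Picalm, Reps2, Rab5b, Eea1, Ehd3, Ap3s1 and Ap3s2) in Slc26a4-/- cells, with a median log2 ratio of -0.05 against -0.11 over all genes, of which 11.2% were higher and 15.6% lower by that mark. Aak1, the kinase that phosphorylates the AP-2 mu subunit, averaged 339 against 120.4 CPM and Synj1, a phosphatase of vesicle uncoating, 318 against 104.9 CPM, while Picalm stood at 3.59 against 45.5 CPM. In Slc26a4+/- cells, 4 of 76 were higher and 10 lower than in Slc26a4+/+ IMC-like cells, where 9.34% and 16.1% of all genes were. In SC-like and RC-like cells 10 of 82 were higher and 22 lower, where 18.8% and 24.3% of all genes were. Comparisons with Slc26a4+/+ share those control cells, so genes that recur between them are not independent. Run 4 held the Slc26a4+/- cells and run 2 most Slc26a4-/- cells of the named types, and the part of the run in these counts was not separated.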

How the data were processed

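Per the labels and methods, cells were picked from dissociated stria vascularis and sequenced with Smart-Seq2, and the authors quantified transcripts with kallisto against GRCm38; its version is not given in the sources used here. The deposited gene table holds estimated counts per cell with decimals dropped (2529 of 2529 member values equalled the truncated sum of transcripts), and the deposited transcript files hold estimated counts and TPM. In these files 1376 of 98492 transcripts had no match in GENCODE M21 (median 0.691% of counts). A further 17 columns of the gene table matched no sample and were not used.

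Counts of 281 cells (172 Slc26a4+/+) were scaled to CPM. Cells were clustered with Seurat 5.3.0 in R 4.3.3 (10 components, resolution 0.8) and named from marker lists, and no doublet caller was run. Left out of the clustering were the members, the endocytosis list of 106 genes and a set of genes that the study makes claims about. Naming required that 80% or more of a cluster had its top score for the same list. Values were computed in Python 3.11.15. Ratios are log2 of mean CPM + 1, over genes whose group means averaged at least 10 CPM, and a ratio of 2 was the mark. No test was run, since no label ties cells to mice and each genotype is 1 sample. Intervals are exact 95% binomial intervals, and the limit for 0 is 3 counts; without molecular identifiers both cover counting error only. Totals ran from 1848 to 7932729 counts per cell. The members and lists were chosen with earlier results of these data known. Named genes were the 9 members, up to 4 of highest mean per role of the list, those past a ratio of 2, and the 5 genes most correlated with a member. Some genes that this rule names are not reported here. Alternatives covered the pseudocount, filter, scaling, cluster resolution, naming and runs.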

Additional observations from a re-analysis of the deposited data

How the results depend on the processing

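Of the alternatives for the main results, 89 moved the value by less than its spread between runs (for counts and shares, within 1.5-fold or the interval) and 16 moved it further. Of those with a sign, 4 of 77 changed it: the AP-2 median in SC-like and RC-like cells (0.35) was -0.43 within run 4 and -0.24 in RC-like cells within run 4, and that in IMC-like cells (0.12) was -0.0040 over session means and -0.39 within run 2. For single genes between genotypes 32 alternatives changed the sign, 2 of them from a ratio past 2. The log2 ratio of Lrp2 in MC-like over SC-like cells (2.88) was 1.77 with cells named by highest marker score, 2.21 at resolution 0.4 and 2.29 within run 1, and 2.59 to 2.97 leaving out each run. That of Ap2m1 (0.62) was 1.73 within run 2 and 0.22 to 0.98 leaving out each run. The median share of the 25-exon Lrp2 form in MC-like minus SC-like cells (32.3 percentage points) was 5.71 within run 2 and 5.98 to 50.8 leaving out each run, 5.98 without run 3. The share of SC-like cells with Dab2 (17.4%) was 12.5 to 20.0% leaving out each run. Endocytosis genes past a ratio of 2 between Slc26a4-/- and Slc26a4+/+ SC-like and RC-like cells (19) numbered 29 with mean log2(CPM + 1), 12 with a pseudocount of 10 CPM, 9 from 50 CPM, 49 within run 2, 31 in RC-like cells and 31 in RC-like cells within run 4. There Ap2a1 turned to -0.24 in RC-like cells within run 4. In IMC-like cells the AP-2 median (0.12) was 1.24 with mean log2(CPM + 1), and Lrp2 turned to 1.87 within run 2. Lrp2 in MC-like cells (-1.01) was -0.24 with cells named by highest marker score, -1.78 with size factors and -0.68 within run 2. The causes were not tested.

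Size factors from 603 genes moved the median log2 ratio of all genes from -0.11 to -0.43 in SC-like and RC-like cells, from -0.11 to 0.01 in IMC-like cells and from 0.03 to -0.33 in MC-like cells, and the share of higher among called genes from 41.4% to 27.8%, 41.9% to 51.1% and 50.6% to 36.5%. Relative to that median, Lrp2 in MC-like cells was -1.04 and -1.45. The values within run 1, those in RC-like cells within run 4, and those with the highest-Lrp2 RC-like cell left out or Crhbp-led cells added were chosen after seeing the data. No paired analysis was possible because no number in the labels ties cells of different genotypes and no result comes from a test.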
